A study of Mus musculus with 4 samples.

Results

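The genes described here encode subunits of RNA polymerase II (Pol II) and the general transcription factors that place it on promoters. They were chosen by name alone, as all probe sets (the array's groups of short DNA probes for a transcript) whose gene symbol begins with Polr2 and a letter from a to m, with Taf and a digit, or with Gtf2, or is Tbp. This gave 61 probe sets for 39 genes out of 12393 genes with a symbol of their own on the arrays. A further 5 probe sets carried such a symbol together with that of another gene and were given no gene name. The cells were mouse embryonic fibroblasts, cultures started here from C57BL/6J embryos at embryonic day 10.0. The groups were Med1+/+ p53-/- and Med1-/- p53-/-, with 2 arrays each, so that p53 was missing from both groups. Per the labels, both genotypes came from embryos of a single cross of Med1+/- p53-/- males with Med1+/- p53+/- females, and the cells were grown with fetal calf serum. Whether the arrays within a genotype had cultures of their own is not said, and the spread between these samples, all that the p-values measure, may be technical.

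Pol II transcribes the protein-coding genes. At a promoter, TFIID, made of the TATA-binding protein TBP and its associated factors (TAFs), recognises the DNA. TFIIA and TFIIB hold TBP in place and recruit the polymerase. TFIIF arrives with the polymerase, and TFIIE brings in TFIIH. TFIIH opens the DNA, and its kinase phosphorylates the tail of the largest Pol II subunit. Mediator, the complex of which Med1 is a subunit, bridges this machinery to DNA-bound activators such as nuclear receptors. The comparison of Med1-/- with Med1+/+ cells asks here how the transcripts of the machinery that Mediator contacts differ between the genotypes.

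Affymetrix arrays read the 3' ends of transcripts with 22626 probe sets, controls left aside. The deposited signals were not on a common scale: the medians of the Med1+/+ arrays were 76.25 and 106.65, those of the Med1-/- arrays 36.1 and 51.4. All levels below are therefore log2 signals after quantile normalization, which gives every array the same distribution of values, and all changes are Med1-/- minus Med1+/+ on that log2 scale, which sets each gene against the rest of the array. A gene was called higher or lower at an adjusted p under 0.05 (limma, Benjamini-Hochberg adjustment over 8923 features). Med1 itself fell by 3.57 (SE 0.14, adjusted p = 3.15e-05, limma), the direction of the labels. Of 16 fibroblast and mesenchyme markers 15 were above the filter on low values. Their summed normalized signals were 51900 to 56000 on the Med1+/+ and 57400 to 61000 on the Med1-/- arrays. These sums were carried largely by the bright genes Vim, Fn1 and Col1a2 and hide the changes of others. Of the 15, 6 were called higher, most of all Col1a1 (1.98), and 4 lower (limma, adjusted p under 0.05). The latter were Pdgfra (-2.95), Prrx1 (-2.89), S100a4 (-2.68) and Dcn (-1.99). Of 11 epithelial markers 7 were above the filter, and among these 5 were called lower and 1 higher (limma, adjusted p under 0.05). Cdh1 (-4.50), Krt18 (-4.45), Dsg2 (-4.39) and Dsp (-3.92) were lower and Krt19 (1.61) was higher, so that the summed signal, 5120 to 5270 on the Med1+/+ and 2440 to 2810 on the Med1-/- arrays, understates the fall of the former. Of 10 skeletal muscle markers only Des was above the filter (3.78, adjusted p = 6.2e-05, limma), and the muscle regulators Myod1 and Myog were not. The summed muscle marker signal was 71.8 to 118 against 582 to 586, and on the Med1-/- arrays it was mostly Des. The markers under the filter went both ways, from -2.14 (Mylpf) to 1.71 (Myod1), low values from which no difference is read. Xist, the RNA of the inactive X chromosome, fell by 4.53 (adjusted p = 3.47e-05, limma), while the Y-linked genes Eif2s3y, Kdm5d and Uty were under the filter. Sums over 7 endothelial markers (44.2 to 90.2) and 8 blood cell and macrophage markers (120 to 154) were low on all 4 arrays. The ratio of 3' to 5' signal of the Actb control was 1.52 and 1.38 in Med1+/+ against 1.28 and 1.22 in Med1-/- cells, and that of the Gapdh control 0.947 and 0.9 against 1.11 and 1. The part of these shifts in the results below was not tested. In such bulk samples fewer cells of a type and less RNA per cell cannot be told apart, and effects of the loss of Med1 cannot be told apart from whatever else set the embryos and cultures of the genotypes apart.

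Genes of the machinery moved in both directions, and the subunits of most complexes did not move as units. The largest Pol II subunit gene Polr2a had one of the 75 largest rises among all features, whereas its catalytic partner Polr2b fell. The TFIIA, TFIIB and TFIIE genes tested fell, as did the kinase genes of TFIIH, and several TAF genes of TFIID and of the coactivator complex SAGA rose. Of the 39 genes, 36 passed the filter on low values, and of these 16 were called higher and 12 lower, with 8 not passing the test. These counts lie close to the background: 77.8% of the 36 were called against 75.3% of all features, 44.4% were higher against 39.1%, and 33.3% were lower against 36.2%. At least 2-fold higher were 9 genes (21.2% of all features were called so) and at least 2-fold lower 2 genes (19.2% of all features), together 11 genes against 40.4% of all features. The median change of the 36 genes was 0.373 against 0.09 for all features, and their median absolute change was 0.665 against 0.836. The arrays of the genotypes did not overlap for 34 of the 36, 94.4% against 88.2% of all features. None of the called genes among the 36 overlapped, so a lack of overlap adds nothing to the calls below.

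**Figure D1:**
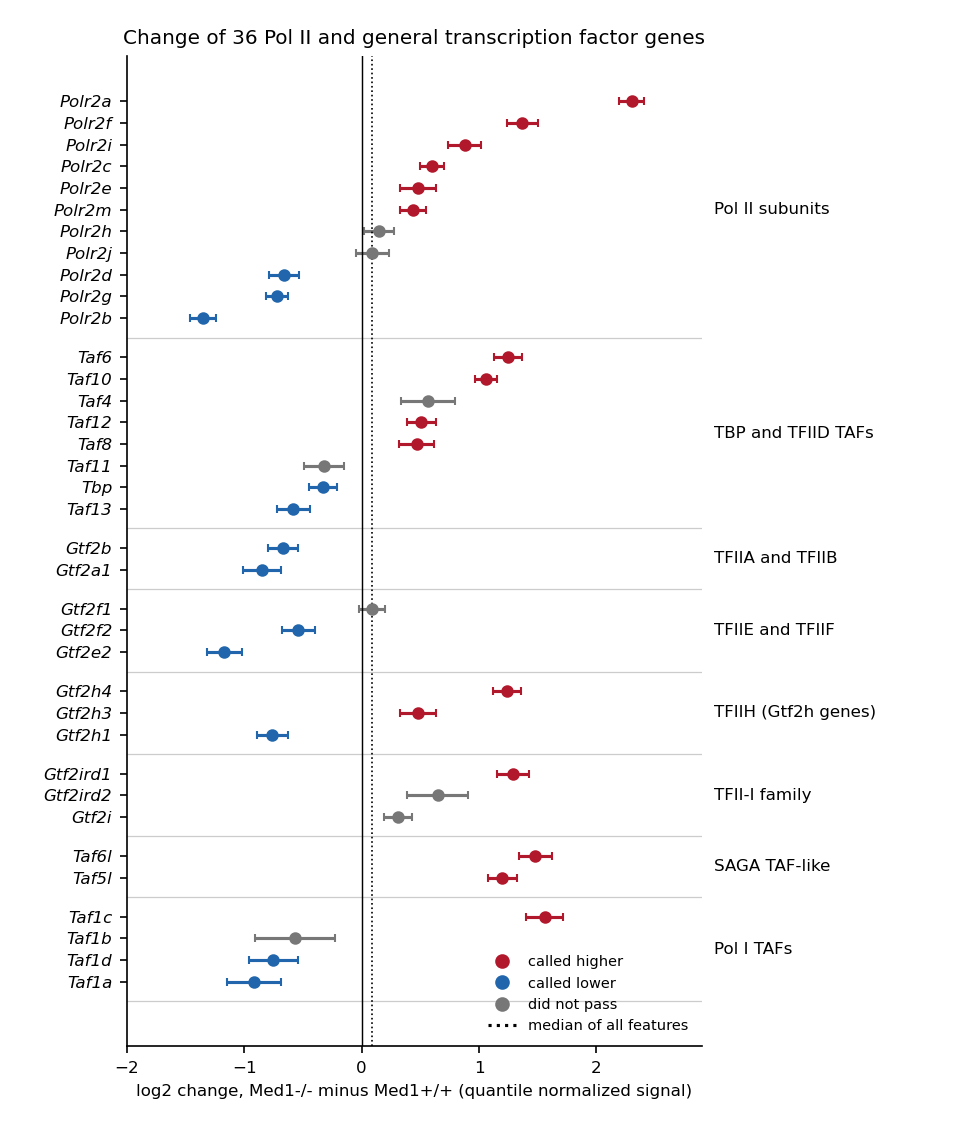
Log2 change (Med1-/- minus Med1+/+, quantile normalized signal) of the 36 tested genes, grouped by complex; points are limma estimates from 2 arrays per genotype, bars are 1 SE, red and blue mark genes called higher and lower, grey marks genes that did not pass, and the dotted line is the median of all features (0.09). Polr2a (2.30) lies farthest to the right and Polr2b (-1.35) farthest to the left.

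The genes of the 2 largest Pol II subunits moved apart. Polr2a encodes the largest subunit, which forms the active centre with Polr2b and carries the repeated tail that TFIIH and other kinases phosphorylate. Its log2 signal was 9.86 and 9.64 in Med1+/+ cells against 12.11 and 11.98 in Med1-/- cells. Both Med1-/- arrays thus stood far above both Med1+/+ arrays, a 4.92-fold rise (log2 change 2.30, SE 0.11, adjusted p = 3.15e-05, limma) that ranked 75 from the top among the 8923 features. A second Polr2a probe set differed by 2.35, from 4.85 and 2.86 to 6.24 and 6.17. It was dim and uneven on the Med1+/+ arrays and passed the filter through its Med1-/- values, so it adds no support. Polr2b, the second-largest subunit gene, had a signal of 10.49 and 10.29 on the Med1+/+ and 9.06 and 9.02 on the Med1-/- arrays. It fell by 1.35 (SE 0.11, adjusted p = 8.44e-05, limma) with no overlap between the genotypes. Within each array the difference between Polr2a and Polr2b varied little between replicates (SD 0.0031 in Med1+/+ and 0.061 in Med1-/-, n = 2), and it shifted by 3.65 between the genotypes. Without quantile normalization the shift was 3.84 in the values as deposited; multiplying whole arrays leaves it nearly as it is.

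Upstream sequences of Polr2a, Polr2b and Tbp, whose product binds TATA boxes, are shown because the first pair, which had the largest rise and the largest fall of the 36 genes, differ in core promoter letters. Each is the 150 bases before the annotated start, 5′ to 3′ on the gene's strand, from RefSeq on GRCm38.p6. Capitals mark matches on either strand to the motifs searched. These were the TATA box as TATAAA, the CCAAT box by its own letters, and the GC box, which Sp1 family factors bind, as GGGCGG. The core of sites for ETS factors was searched as CCGGAA, and that of sites for the factor YY1 as ATGGCG. For the factor NRF1 only a part of its site was searched, as TGCGCA, so sites with other letters stay unmarked.
Polr2a, chr11:69758634-69758783, minus strand: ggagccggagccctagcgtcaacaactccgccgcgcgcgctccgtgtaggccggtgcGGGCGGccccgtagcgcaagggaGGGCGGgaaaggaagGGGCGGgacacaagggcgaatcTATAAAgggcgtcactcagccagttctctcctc
Polr2b, chr5:77310334-77310483, plus strand: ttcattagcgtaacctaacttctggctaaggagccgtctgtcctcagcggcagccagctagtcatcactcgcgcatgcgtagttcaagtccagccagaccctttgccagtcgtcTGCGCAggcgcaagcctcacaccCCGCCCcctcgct
Tbp, chr17:15499738-15499887, plus strand: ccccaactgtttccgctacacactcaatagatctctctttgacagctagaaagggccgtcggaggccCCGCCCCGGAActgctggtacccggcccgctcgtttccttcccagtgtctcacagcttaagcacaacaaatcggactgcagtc

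The Polr2a sequence held TATAAA with its first base 33 bases before the start, the distance range in which TATA boxes are usually found, and GGGCGG at 93, 70 and 55 bases before it. In the Polr2b sequence the matches were a partial NRF1 site at 36 and a GC box, as CCGCCC, at 13 bases before the start. In the Tbp sequence a GC box and an ETS core overlapped by 1 base, at 83 and 78 bases before the start, and TATAAA was not among its letters.

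Among the other Pol II subunits, Polr2f, which encodes a small subunit shared by all 3 nuclear RNA polymerases, rose most. Its signal was 10.56 and 10.62 in Med1+/+ against 11.78 and 12.13 in Med1-/- cells (log2 change 1.37, SE 0.13, adjusted p = 0.000135, limma). Taking the median of both Polr2f probe sets lowered the change to 0.86. Polr2i, whose product acts in elongation and in the fidelity of RNA synthesis, had 9.65 and 9.46 against 10.28 and 10.58 (log2 change 0.88, adjusted p = 0.00108, limma). Polr2c (0.60), which encodes an assembly platform subunit, Polr2e (0.48), another shared subunit gene, and Polr2m (0.44), whose product binds the polymerase and blocks TFIIF, were also called higher. The call of Polr2e was lost without Med1+/+ array 2 (adjusted p = 0.0967, limma) and without Med1-/- array 1, where the change was 0.29 (adjusted p = 0.11, limma). That of Polr2m was lost without Med1+/+ array 2 (adjusted p = 0.0556, limma).

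The genes of the stalk, the detachable pair of subunits at the side of the polymerase where RNA leaves, both fell. Polr2g had 11.62 and 11.57 on the Med1+/+ and 10.88 and 10.87 on the Med1-/- arrays (log2 change -0.72, SE 0.09, adjusted p = 0.000381, limma). Polr2d, which encodes its partner, had 9.28 and 9.20 against 8.70 and 8.45 (-0.66, SE 0.13, adjusted p = 0.00265, limma). Neither pair of arrays overlapped. The fall of Polr2g was smaller with array medians set equal (-0.26, adjusted p = 0.0574, limma) or 75th percentiles set equal (-0.44). Polr2h, another shared subunit gene (0.15), and Polr2j, the assembly partner of Polr2c (0.09), did not pass, and these were the 2 genes of the 36 whose genotypes overlapped. Over the 11 Pol II subunit genes tested 6 were higher and 3 lower (39.1% and 36.2% of all features), with a median change of 0.44. Not among them are Polr2k and Polr2l, whose probe sets also carry the symbol of another gene. These probe sets, both above the filter, differed by -1.41 (Polr2k) and 0.68 (Polr2l).

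**Figure D2:**
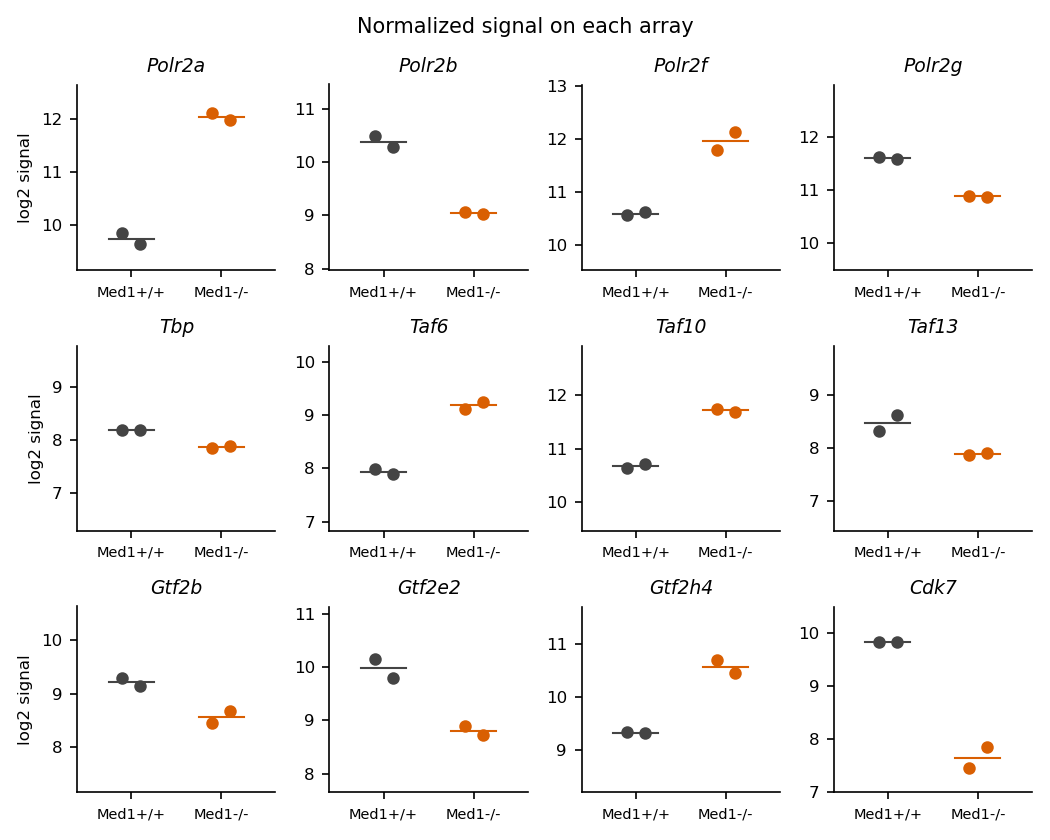
Normalized log2 signal on each of the 4 arrays for 12 genes, Med1+/+ in grey and Med1-/- in orange; each point is an array, each short line the mean of 2 arrays, and each panel spans the same log2 range around its own midpoint. The 12 genes were taken from those called, and the arrays of the genotypes do not overlap in any panel. They did not overlap for 88.2% of all features either, so this adds nothing to the calls. Polr2a (2.30) and Cdk7 (-2.18), the kinase gene of TFIIH, show the widest gaps.

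TFIID genes were split between rises and falls. Tbp had 8.20 and 8.19 on the Med1+/+ and 7.85 and 7.89 on the Med1-/- arrays, a small fall (log2 change -0.33, SE 0.12, adjusted p = 0.0373, limma). This call was lost when any of the 4 arrays was left out (adjusted p = 0.0719 to 0.143, limma), without the filter on low values (0.0541) and with array medians set equal (-0.19, adjusted p = 0.188, limma). Taf6 and Taf10, which encode histone-fold TAFs of the TFIID core, rose most. Taf6 had 7.99 and 7.89 against 9.12 and 9.26 (log2 change 1.25, SE 0.12, adjusted p = 0.000122, limma). Taf10, also a subunit of SAGA, had 10.63 and 10.70 against 11.75 and 11.69 (1.06, SE 0.09, adjusted p = 9.35e-05, limma). The arrays of each genotype lay close together for both genes and far from those of the other genotype. Taf12 (8.08 and 8.19 against 8.60 and 8.69, log2 change 0.51, adjusted p = 0.00614, limma) and Taf8 (0.47, adjusted p = 0.0261, limma), both histone-fold TAF genes, rose less. The Taf8 call was lost without Med1+/+ array 1, Med1+/+ array 2 or Med1-/- array 1, with changes of 0.43 to 0.48. It was also lost without the filter (adjusted p = 0.0628, limma) and with 75th percentiles set equal (0.31, adjusted p = 0.113, limma). The median of both Taf8 probe sets gave 0.94. The probe set added there had 4.05 and 4.82 in Med1+/+ against 5.64 and 6.05 in Med1-/- cells. It passed the filter through its Med1-/- values, so that median adds no support.

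Taf13, which encodes the TAF that pairs with Taf11, fell from 8.32 and 8.62 to 7.87 and 7.90 (log2 change -0.58, SE 0.14, adjusted p = 0.00748, limma), a call lost without Med1+/+ array 2 (adjusted p = 0.0606, limma). Its partner gene Taf11 (-0.32, SE 0.17, adjusted p = 0.115, limma) did not pass, and neither did Taf4, the gene of a large scaffold TAF (0.57, SE 0.23, adjusted p = 0.0586, limma). Taf4 passed as the median over its probe sets (0.64, adjusted p = 0.00857, limma), with array medians set equal (0.71, adjusted p = 0.0322, limma), without Med1+/+ array 2 (0.74, adjusted p = 0.045, limma) and without Med1-/- array 1 (0.90, adjusted p = 0.00314, limma). Without Med1-/- array 2 its change was 0.24. Of the 8 TFIID genes tested 4 were thus higher and 2 lower (39.1% and 36.2% of all features), with a median change of 0.49. Taf9 is not among them, because its probe sets also carry the symbol of another gene. These probe sets, all above the filter, differed by -1.45, -1.85 and -0.85. Taf7 and Taf7l, which encode the TAF that restrains TFIID acetylation and its testis-enriched relative, were under the filter on all their probe sets and were not tested. The normalized log2 signal of Taf7l was 3.58 and 3.13 in Med1+/+ cells against 1.42 and 1.15 in Med1-/- cells, low values from which no difference is read.

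Of the tested genes of TFIIA, TFIIB, TFIIE and TFIIF, all but Gtf2f1 were called lower, against 36.2% of all features. They are too few for this to be read as a trait of the set. TFIIA was read from Gtf2a1 alone and TFIIE from Gtf2e2 alone. Gtf2a1, which encodes the large precursor of TFIIA, had 7.21 and 7.37 on the Med1+/+ and 6.36 and 6.52 on the Med1-/- arrays (log2 change -0.85, SE 0.16, adjusted p = 0.00272, limma). The median over its probe sets was -1.36. The probe set added there (6.18 and 6.56 against 4.18 and 4.81) passed the filter through its Med1+/+ values, so that median adds no support. Gtf2b, the gene of TFIIB, had 9.29 and 9.15 against 8.45 and 8.67 (-0.67, SE 0.13, adjusted p = 0.00273, limma). Gtf2e2, the smaller TFIIE subunit gene, had 10.16 and 9.80 against 8.89 and 8.72, the largest fall after Polr2b (-1.17, SE 0.15, adjusted p = 0.000412, limma). For each of these genes both Med1-/- arrays lay below both Med1+/+ arrays. The TFIIF genes differed: Gtf2f2, the smaller subunit gene, had 8.03 and 8.24 against 7.51 and 7.66 (-0.54, SE 0.14, adjusted p = 0.01, limma), a call lost without Med1+/+ array 2 (adjusted p = 0.0779, limma). Gtf2f1, the larger subunit gene, did not pass (0.09, SE 0.11, adjusted p = 0.44, limma). The germ-cell TFIIA gene Gtf2a1l was under the filter, with log2 signals of 3.04 to 3.36.

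TFIIH joins a core, which contains the helicases, to a kinase module. The 3 genes of the kinase module were lower, whereas the core genes were mixed. In the core, Gtf2h4 had 9.34 and 9.31 on the Med1+/+ and 10.69 and 10.45 on the Med1-/- arrays (log2 change 1.24, SE 0.12, adjusted p = 0.000122, limma). The helicase gene Ercc2, which is not covered by the naming rule but encodes a core subunit, had 6.02 and 5.79 against 7.16 and 7.13 (1.24, SE 0.18, adjusted p = 0.000735, limma). Gtf2h3, another core gene, rose less (0.48, SE 0.15, adjusted p = 0.0213, limma), and its call was lost without Med1+/+ array 1, Med1+/+ array 2 or Med1-/- array 1 (adjusted p = 0.05 to 0.102, limma) and with 75th percentiles set equal (adjusted p = 0.0541, limma). Gtf2h1, by contrast, had 8.52 and 8.50 against 7.84 and 7.66 (-0.76, SE 0.13, adjusted p = 0.00137, limma), and the other helicase gene Ercc3 did not pass (0.26, adjusted p = 0.0969, limma).

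In the kinase module Cdk7, the kinase that phosphorylates the Pol II tail, had 9.84 on both Med1+/+ arrays against 7.46 and 7.85 in Med1-/- cells. This was a 4.54-fold fall (log2 change -2.18, SE 0.15, adjusted p = 4.86e-05, limma), or -1.36 as the median over its probe sets. Its cyclin gene Ccnh had 10.71 and 10.64 against 8.95 and 9.10 (-1.65, SE 0.11, adjusted p = 4.33e-05, limma). Mnat1, which encodes the assembly factor of the module, fell less (-0.46, adjusted p = 0.0328, limma). The Mnat1 call was lost without Med1+/+ array 2, where the change was -0.27 (adjusted p = 0.23, limma), without either Med1-/- array (adjusted p = 0.056 and 0.07, limma), without the filter (0.056) and with array medians set equal (0.0813). Within each array the Gtf2h4 signal shifted by 3.43 relative to that of Cdk7 between the genotypes (SD 0.025 in Med1+/+ and 0.45 in Med1-/-, n = 2). Of the 5 TFIIH genes outside the naming rule 1 was higher and 3 were lower, against 39.1% and 36.2% of all features.

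The naming rule also takes in proteins that are not part of the Pol II initiation complex. Taf5l and Taf6l encode the SAGA counterparts of TFIID's Taf5 and Taf6. Taf6l had 6.78 and 6.87 on the Med1+/+ and 8.42 and 8.19 on the Med1-/- arrays (log2 change 1.48, SE 0.14, adjusted p = 0.000131, limma), and Taf5l had 7.86 and 7.79 against 9.08 and 8.97 (1.20, SE 0.12, adjusted p = 0.000134, limma). Both were clear of overlap. Taf6l and Polr2g are neighbours on chromosome 19 with no protein-coding gene between them, and they moved in opposite directions, by 1.48 and -0.72. Of 11 SAGA partner genes tested 5 were higher, among them the acetyltransferase gene Kat2a (1.36), and 4 lower, among them Eny2 (-1.23), a gene of the deubiquitinating module, with a median of 0.00. Over all features 39.1% were called higher and 36.2% lower.

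The Taf1a to Taf1d genes encode TAFs of the selectivity factor that brings RNA polymerase I to ribosomal RNA genes. Taf1c had 6.58 and 6.56 on the Med1+/+ and 8.29 and 7.97 on the Med1-/- arrays, the second-largest rise of the 36 genes (log2 change 1.56, SE 0.16, adjusted p = 0.000159, limma). Its partner Taf1a had 6.25 and 6.15 against 5.22 and 5.35 (-0.92, SE 0.23, adjusted p = 0.00897, limma), and Taf1d had 7.80 and 8.28 against 7.10 and 7.48 (-0.75, SE 0.21, adjusted p = 0.0148, limma). These subunit genes thus changed in opposite directions. The Taf1a call was lost without either Med1+/+ array (adjusted p = 0.0608 and 0.0846, limma) and that of Taf1d without Med1+/+ array 2 (adjusted p = 0.0895, limma), while the median over the Taf1d probe sets was -1.35. Taf1b (-0.57, SE 0.34, adjusted p = 0.167, limma) did not pass.

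The TFII-I family genes encode multifunctional DNA-binding factors of signal response and lie in a cluster on chromosome 5. Gtf2ird1 had 7.99 and 7.74 on the Med1+/+ and 9.24 and 9.07 on the Med1-/- arrays (log2 change 1.29, SE 0.14, adjusted p = 0.000194, limma). Its direct neighbour Gtf2i, which encodes TFII-I, had 10.26 and 10.06 against 10.56 and 10.38, and did not pass (0.31, SE 0.12, adjusted p = 0.0514, limma). Gtf2ird2, separated from Gtf2i by 1 gene, had 6.68 and 6.45 against 7.59 and 6.83 and did not pass either (0.65, SE 0.26, adjusted p = 0.0595, limma). The values of all 3 genes were higher on both Med1-/- arrays. The Gtf2i change was larger as the median over its probe sets (0.69, adjusted p = 0.000768, limma) and with array medians set equal (0.66, adjusted p = 0.0015, limma).

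Several probe sets measured 14 of the genes, and for 10 of them all probe sets ran in the direction of the probe set used. Gtf2h4 had 4 probe sets with differences from 0.28 to 1.66, and Taf1d 5 with differences from -2.12 to -0.62. The exceptions were a dim Gtf2a1 probe set (0.70) and a dim Taf10 probe set (-0.32), both under the filter, and Gtf2f1, whose probe sets gave 0.09 and -0.16. For Taf7, the remaining gene, no probe set was used. Among the probe sets above the filter but not used, those of Polr2a, Taf8 and Gtf2a1 passed it through the values of a single genotype. Their direction adds no support. Probe sets with identifiers ending in _s_at or _x_at can match transcripts of other genes, and those used for Gtf2h4, Taf1d, Taf1c, Polr2e, Taf8 and Taf4 were of this kind.

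**Figure D3:**
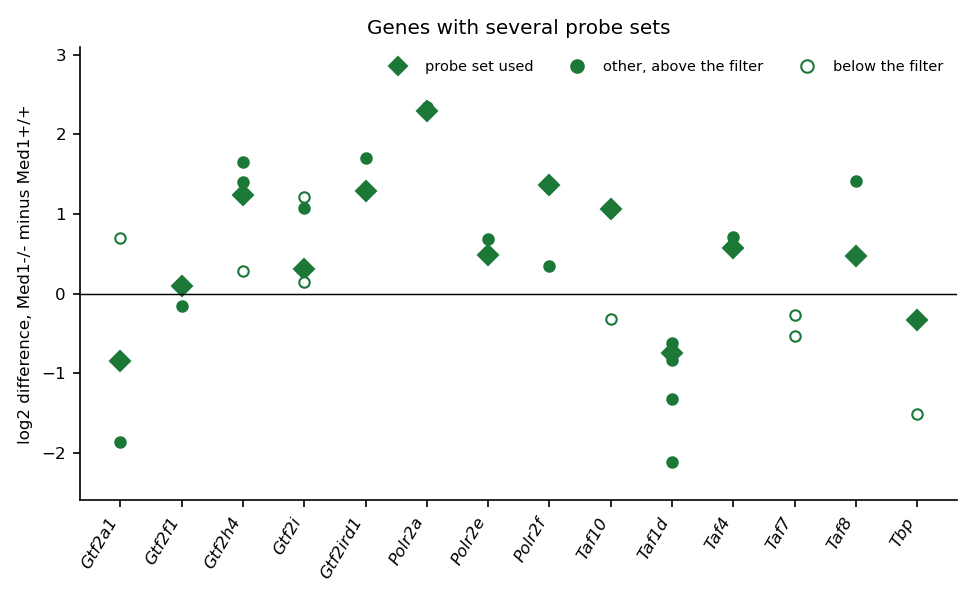
Log2 difference (Med1-/- minus Med1+/+) of every probe set of the 14 genes that had several; diamonds are the probe sets used, filled circles other probe sets above the filter on low values, open circles those under it. The 2 Polr2a probe sets coincide near 2.3, though the one not used passed the filter only through its Med1-/- values. The open circles of Gtf2a1 (0.70) and Taf10 (-0.32) lie on the other side of 0 from the diamond of the same gene.

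The calls of most rises depended on how the arrays were scaled, and on the Bacillus subtilis controls most rises also turned sign. Among the 36 genes 16 were called higher and 12 lower after quantile normalization, 21 and 10 with array medians set equal, and 15 and 13 with 75th percentiles set equal. In the values as deposited 1 was higher and 14 lower. Scaling on the hybridisation controls gave 9 and 21, and scaling on the Bacillus subtilis controls 1 and 32. The geometric mean of the latter, as deposited, was 56.1 and 76.1 on the Med1+/+ and 97.8 and 150 on the Med1-/- arrays. That of the hybridisation controls was 1370 to 1880, so the Bacillus subtilis controls were dim. Whether they are reliable as a scale was not tested. The median of all features moved over the same settings, being 0.09, 0.30, 0.11, -0.76, -0.77 and -1.64. Polr2a was the gene called higher under all 6 scalings, with changes from 0.81 to 2.76, and 10 of the 12 genes called lower were so under all 6, the exceptions being Polr2g and Tbp with array medians set equal. Relative to the median of all features, all 16 genes called higher lay above and all 12 called lower below, after quantile normalization and under the other 5 scalings. Those 5 differ only by a factor per array, so a gene's place relative to that median is nearly fixed among them and they count as 1 check. The median change of the 36 genes was 0.28 above that of all features after quantile normalization and 0.24 above it under the other 5.

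**Figure D4:**
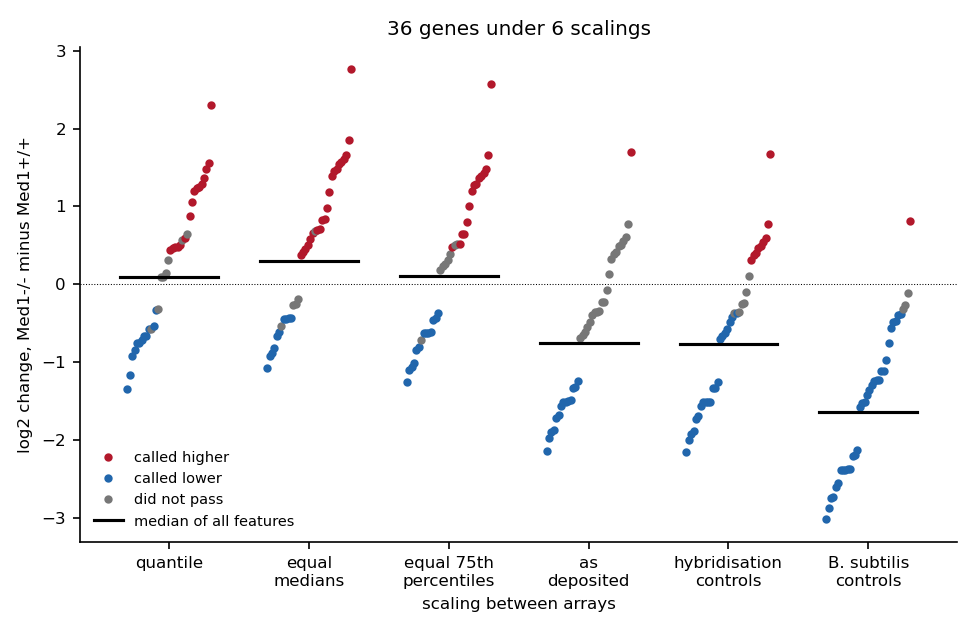
Log2 change (Med1-/- minus Med1+/+) of the 36 genes under 6 ways of scaling the arrays, genes sorted by value within each scaling; red and blue mark genes called higher and lower, grey marks genes that did not pass, and black lines are the median of all features. The whole set moves down with that median from 0.30 with equal medians to -1.64 on the Bacillus subtilis controls, and Polr2a remains the highest point in each.

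Lists of other genes that act with the polymerases were mostly split between rises and falls. Of 21 elongation and pausing factor genes tested 9 were higher and 8 lower, with a median of 0.11. The super elongation complex genes illustrate the split: Mllt1 (1.47) and Ell (1.44) rose, and Aff4 (-1.70, or -1.02 as the median over its probe sets) and Ell2 (-1.56) fell. Of 14 genes of phosphatases of the Pol II tail and of polymerase assembly factors 7 were higher and 4 lower, with a median of 0.20. Ctdp1, the gene of a phosphatase that resets the tail, rose from 8.74 and 8.51 to 10.83 and 10.71 (log2 change 2.14, SE 0.12, adjusted p = 3.47e-05, limma). Rpap1, which encodes a polymerase assembly factor, rose by 1.68, and Rprd1a, whose product binds the phosphorylated tail, fell by 1.06 (by 0.43 as the median over its probe sets). Of 3 regulators and relatives of TBP, Drap1 rose (1.22) and Tbpl1 did not pass (-0.37, adjusted p = 0.0678, limma). Dr1, which encodes the partner of Drap1 in the NC2 repressor, fell by 0.89, but the median over its probe sets was -0.03 (adjusted p = 0.905, limma). The list of 9 RNA polymerase I genes differed in that 6 did not pass and 3 were higher, including Polr1b (1.30) and the factor gene Ubtf (1.01). Of 16 genes of RNA polymerase III 7 were higher, including Gtf3c1 (1.65) and Gtf3a (1.64), and 5 lower, including Polr3g (-1.37). For all these lists 75.3% of features called is the background as well.

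Genes called higher were shorter than those called lower, here and over all genes. The median genomic length in GRCm38.p6 was 9642.5 bases for the 16 genes called higher and 19838.5 for the 12 called lower, against 15307 and 31255 bases over all genes called higher and lower. Across genes, which are not independent replicates, change and length had a Spearman correlation of -0.22 over the 36 genes and -0.26 over 7869 genes. In the RefSeq windows from 250 bases before to 50 after the start, 35 of the 39 genes had 43 promoters. An ETS core (CCGGAA) was found in 44.2% of these windows, in 14.9% of all 32851 windows, and in 29.1% and 29.5% of those of all tested genes called higher and lower. A GC box was found in 60.5%, above the 35.7% of all windows but below the 67.6% and 64.1% of tested genes called higher and lower. A TATA box was found in 16.3%, against 13.6% of all windows and 5.65% and 7.86% of those tested genes. A partial NRF1 site (TGCGCA, its own reverse complement) stood in 27.9% of the 43 windows, against 7.76% of all windows. Of the genes called lower, 5 of 11 windows held it, those of Polr2b, Gtf2f2, Taf13 and, in overlapping windows, Taf1a. Of the genes called higher, 1 of 20 windows held it, that of Taf5l. Windows of Gtf2f1, Gtf2i, Polr2h, Polr2j and Taf4, which did not pass, and of Gtf2a1l, not tested, held it too. Over all tested genes the share was 14.6% for those called lower and 14.4% for those called higher. For the other motifs the shares of these 20 and 11 windows, called higher and lower, were 40% and 54.5% (ETS core) and 65% and 54.5% (GC box). They were 15% and 9.09% (TATA box), 40% and 36.4% (CCAAT box), and 5% and 27.3% (YY1 core). Over all tested genes called higher and lower, a CCAAT box stood in 37.4% and 38.3% of windows and a YY1 core in 15.4% and 16.6%. The YY1 core stood in 8.93% of all windows. Gtf2e2, Polr2d, Polr2g and Taf7 had no entry in the promoter table.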

How the data were processed

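Total RNA had been labelled with biotin by in vitro transcription, per the labels' protocols. The deposited table gave intensities on a linear scale; the authors' probe summary and array scaling are not given in the sources used here. Quantile normalization was applied to the 22626 probe sets left after removing 64 controls. Values were taken as log2(intensity + 1.7), a pseudocount at the table's 10th percentile that shrinks the changes of dim genes. A filter removed the 9050 probe sets whose mean was below the 40th percentile, and the brightest probe set stood for a gene. Gene names follow the platform's annotation table, with symbols renewed by Entrez identifier from RefSeq (GRCm38.p6). Genotypes were compared with limma 3.58.1 in R 4.3.3 (moderated two-sided tests from eBayes with trend, 2 residual and 4.71 prior degrees of freedom), with Benjamini-Hochberg adjustment over 8923 features. The number of arrays limits the precision.

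The genes and lists were chosen with earlier results of these data known. Every gene covered by the naming rule could be named, with array values for Polr2a, Tbp and up to 3 called rises and falls per complex, and, of the other lists, up to 2 called rises and 2 falls. Cdk7, Ccnh and Ercc2 fall under that rule; Ercc3, Mnat1 and Tbpl1, which complete their lists, the cell type markers, and the array values of Gtf2i and Gtf2ird2 were added after their values were seen. In data simulated from these arrays for Med1-/- against Med1+/+ (8930 genes tested), 65, 66 and 63 genes were given changes of 0.5, 1 and 2 (log2). The test recovered 27.7%, 77.3% and 100% of them, with 12 false calls among 144. In the arrays themselves 75.3% of features were called, so these rates need not hold there. Figures were drawn with matplotlib 3.10.9.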

Additional observations from a re-analysis of the deposited data

How the results depend on the processing

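After quantile normalization 16 genes were called higher and 12 lower. These counts stayed within 1.5 times of that without the filter, with the filter at the 60th percentile, with a pseudocount of 16, with the median over probe sets, without the intensity trend, and with medians or 75th percentiles set equal. At least 2-fold, 9 were higher and 2 lower. With an array left out, 13 to 18 were higher and 7 to 12 lower, the lowest without Med1+/+ array 2. Rises numbered 1 as deposited, and counts were 9 and 21 on the hybridisation controls and 1 and 32 on the Bacillus subtilis controls. The replicate numbers in the labels are not said to pair the arrays; deviations of same-numbered arrays correlated at 0.27, and with the replicate number as a block 19 genes were higher and 12 lower.

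Among the genes named, changes that turned sign in the values as deposited were those of the called genes Polr2c (-0.08), Taf8 (-0.55), Polr2e (-0.23), Taf12 (-0.36), Polr2m (-0.23) and Gtf2h3 (-0.48). Those of Gtf2f1 (-0.69), Polr2j (-0.62), Polr2h (-0.65), Gtf2i (-0.40), Gtf2ird2 (-0.36), Taf4 (-0.35) and Ercc3 (-0.64), which had not passed, turned too. On the hybridisation controls they were those of Polr2c (-0.10), Taf8 (-0.57), Polr2e (-0.24), Gtf2f1 (-0.71), Polr2j (-0.63), Taf12 (-0.37), Polr2h (-0.66), Gtf2i (-0.42), Gtf2ird2 (-0.37), Taf4 (-0.36), Polr2m (-0.25), Gtf2h3 (-0.49) and Ercc3 (-0.66). On the Bacillus subtilis controls they were those of Polr2f (-0.11), Polr2c (-0.97), Taf8 (-1.43), Polr2e (-1.11), Gtf2f1 (-1.58), Polr2j (-1.51), Gtf2ird2 (-1.23), Taf6 (-0.49), Taf12 (-1.24), Taf1c (-0.27), Polr2h (-1.53), Gtf2i (-1.29), Polr2i (-0.76), Polr2m (-1.12), Gtf2h4 (-0.38), Taf5l (-0.56), Taf10 (-0.40), Gtf2ird1 (-0.47), Taf4 (-1.23), Taf6l (-0.32), Gtf2h3 (-1.36), Ercc2 (-0.65), Ercc3 (-1.53), Drap1 (-0.45), Polr1b (-0.50), Ubtf (-0.69), Gtf3c1 (-0.13), Mllt1 (-0.31), Ell (-0.41), Rpap1 (-0.08) and Kat2a (-0.31). Which scaling matches the amount of RNA per cell was not tested.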
